A study of Mus musculus with 30 samples.

Results

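The genes described here are the numbered members of 4 families of matrix and cell-surface proteases and their inhibitors, the ADAM, ADAMTS and MMP metalloproteases and the TIMP inhibitors, in blood vessels taken from mouse brain. Members were chosen by symbol alone (Adam, Adamts, Mmp or Timp followed directly by a number) among the array's probe sets that are paired with exactly 1 gene, and where a gene had several probe sets the one with the highest mean signal was read. This gave 65 of the 18194 genes on the array: 28 ADAM, 15 ADAMTS, 18 MMP and 4 TIMP genes. Of these, 18 were above 4 on the log2 signal scale on at least 3 of the 30 arrays and are called measured here; the other 47 were not and entered no test.

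The study isolated brain microvascular fragments, which are short pieces of capillary and small vessel with the cells attached to them, from mice with too few pericytes and from controls, and measured their total RNA on Affymetrix arrays. Pericytes are the cells that wrap the endothelium, and platelet-derived growth factor B (PDGF-B) secreted by the endothelium recruits them. Each array holds 1 biological replicate, and there are 8 groups. The ret mutants (pdgfbret/ret, n = 4, aged 7 or 10 months, C57/B6/J) lack the motif that retains PDGF-B near the endothelium on both alleles, and their controls (pdgfbret/+, n = 4, aged 8 or 10 months, C57/B6/J) carry the same deletion on 1 allele; no region is named for either. The R26P mutants (Tie2Cre, R26P+/0, pdgfb-/-, n = 4 each for cerebrum and cerebellum) have no mouse PDGF-B gene and make human PDGF-B from 1 copy of a transgene in the Rosa 26 locus, switched on by Cre under the Tie2 promoter, which is active in endothelium and also in blood cells. The R26P controls (R26P+/0, pdgfb+/+, n = 4 each for cerebrum and cerebellum) carry 1 silent copy of the transgene and no Cre is named for them. Both R26P genotypes are on a mixed C57/SV129 background, and their labels contradict each other on age, giving 1 year in 1 place and 2 months in another. The wild-type mice (Notch3+/+, C57/B6/J, 2 months, n = 3 each for cerebellum and cerebrum) were normalized separately from the other 24 arrays, so their levels are set only against each other.

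ADAM proteins are anchored in the cell membrane, and the active ones cut the outer parts off receptors, adhesion molecules and growth factors. ADAMTS and most MMP proteins are secreted and cut matrix: the ADAMTS1, 4, 5, 8 and 9 group cleaves proteoglycans such as versican and aggrecan, the gelatinases cleave denatured collagen and collagen IV of basement membrane, and the membrane-type MMPs act at the cell surface. The 4 TIMP proteins bind and block the active site of MMPs and, for TIMP3, of several ADAM and ADAMTS proteins. In brain capillaries, endothelium and pericytes share 1 basement membrane, and its turnover is one of the functions these families are known for.

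Some arrays stood apart or went against their labels. Arrays of 1 group correlated at 0.986 to 0.998 over all 45101 probe sets, of which 32.79% or more lay at the lowest value on each array. Transcripts of the mouse Pdgfb gene were between 4.73 and 8.01 (log2 signal) on the 8 R26P mutant arrays, against 12.05 to 12.86 on the 8 R26P control arrays. They were thus lower on every mutant array, as the genotypes state, but not equally low. They were highest on R26P mutant cerebrum 3 (8.01), cerebellum 3 (7.51) and cerebrum 2 (6.45), and at most 5.02 on the other mutant arrays. Why was not tested. The sex labels of all 4 ret controls were contradicted by Xist and Eif2s3y. Growth hormone (Gh) and prolactin (Prl), which are pituitary transcripts, were above 9 on ret mutants 1, 2 and 4, R26P mutant cerebrum 2 and 3, R26P mutant cerebellum 3, R26P control cerebrum 2 and 3 and WT cerebrum 3. Of 238 genes that passed the test between wild-type regions, 157 had the wild-type sign in R26P mutant pair 3, against 188 to 227 in the other 7 R26P pairs of cerebellum and cerebrum, so the region labels of that pair are not settled by the data. Endothelial markers (10 of 10 measured) had mean levels of 13.01 to 13.39 on the 12 mutant arrays. On the 12 controls of both models they were 12.74 to 13.40. In cerebellum they were 13.23 to 13.30 in R26P mutants, against 12.74 to 13.00 in R26P controls, without overlap. In ret, R26P cerebrum and R26P cerebellum, 1, 2 and 3 of the 10 were higher in mutants by limma, and 1, 1 and 0 lower.

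In all, 6 members were lower in mutants in at least 1 of the 3 mutant comparisons below, and promoter sequences were at hand for 3 of them: Adamts1, Mmp14 and Timp4. They are shown for that reason alone. All 3 were, with Adam9, among the members called lower in R26P mutant cerebellum. Each line holds the 250 bases before the annotated start of transcription, from the sense strand, 5′ to 3′, from RefSeq (build GRCm38.p6): Adamts1 at chr16:85803114-85803363 (minus strand), Mmp14 at chr14:54431348-54431597 (plus strand) and Timp4 at chr6:115252206-115252455 (minus strand). Capitals mark matches, on either strand, to the TATA core TATAAA or to the GC box GGGCGG.
Adamts1: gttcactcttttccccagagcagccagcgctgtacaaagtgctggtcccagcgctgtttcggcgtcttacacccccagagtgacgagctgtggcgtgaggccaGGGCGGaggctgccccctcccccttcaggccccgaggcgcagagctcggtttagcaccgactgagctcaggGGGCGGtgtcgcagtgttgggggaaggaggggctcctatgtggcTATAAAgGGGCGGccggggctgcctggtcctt
Mmp14: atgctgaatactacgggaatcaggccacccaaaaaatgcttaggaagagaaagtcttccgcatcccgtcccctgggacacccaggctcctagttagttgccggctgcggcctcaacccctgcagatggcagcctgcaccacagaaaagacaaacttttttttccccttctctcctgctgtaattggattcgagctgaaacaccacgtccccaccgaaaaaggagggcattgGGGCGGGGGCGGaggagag
Timp4: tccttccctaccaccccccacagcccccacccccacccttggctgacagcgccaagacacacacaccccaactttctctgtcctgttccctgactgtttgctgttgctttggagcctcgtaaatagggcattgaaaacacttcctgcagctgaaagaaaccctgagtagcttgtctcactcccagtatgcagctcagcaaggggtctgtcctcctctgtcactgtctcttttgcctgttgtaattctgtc
The Adamts1 window held 1 TATAAA, beginning at position −32 from the start, and 3 GGGCGG matches, none of which overlapped another match. The Mmp14 window held 2 adjoining GGGCGG matches that did not overlap and no TATAAA, and the Timp4 window held neither. TATAAA was found in 12.37% and GGGCGG in 32.74% of all 32851 windows of the same length in the table. TGANTCA (the AP-1 motif) and TGGGAA (the core bound by RBPJ, the DNA-binding partner of Notch), which 6.75% and 21.59% of all windows held, were in none of the 3. The shares of G and C were 65.6% for Adamts1, 55.2% for Mmp14 and 53.6% for Timp4, against a median of 52.4% over all windows.

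Several members lie in runs along the genome. With a gap of at most 100000 bases between successive members, 28 of the 65 genes lie in 9 runs (RefSeq, GRCm38.p6). The longest is the MMP cluster at chr9:7272514-7699585, with Mmp13, Mmp12, Mmp1b, Mmp3, Mmp1a, Mmp10, Mmp8, Mmp20 and Mmp7, and 0 of its 9 members were measured. The run at chr8:24602246-25017040 holds Adam18, Adam3, Adam5, Adam32 and Adam9; the first 4 are testis genes and were not measured, while Adam9, at chr8:24949611-25017040, was above 4 on all 30 arrays. Adamts1 (chr16:85793827-85803113) and Adamts5 (chr16:85858157-85901125) lie 55043 bases apart with 0 protein-coding genes between them, and it is the only run with more than 1 measured member. The other members taken up below are Adamts10 (chr17:33523646-33553782), Mmp14 (chr14:54431598-54442456) and Timp4 (chr6:115244444-115252205).

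The 18 measured genes were 6 ADAM genes (Adam9, Adam10, Adam11, Adam15, Adam17 and Adam22), 6 ADAMTS genes (Adamts1, Adamts4, Adamts5, Adamts8, Adamts9 and Adamts10), 3 MMP genes (Mmp2, Mmp14 and Mmp17) and 3 TIMP genes (Timp2, Timp3 and Timp4). By group, 14 members were above 4 on every array in ret mutants and 14 in ret controls, 15 in each of the 2 R26P mutant regions, 17 in R26P control cerebrum, 16 in R26P control cerebellum and 17 in each WT region. Of the roles in the families, 5 of the 7 proteoglycan-cleaving ADAMTS genes, 4 of the 9 active ADAMs found outside the testis and 2 of the 4 membrane-type MMPs were measured. Of the 4 collagenases, 3 stromelysins and the matrilysin Mmp7, 0 were measured, nor were any of the 16 ADAMs of testis and epididymis. The gelatinase Mmp9 reached 2.65 at most, and lay at the array's lowest value (within 0.001) on 28 of 30 arrays, while the other gelatinase, Mmp2, was above 4 on all 30.

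Of the 47 genes that were not measured, 19 lay within 0.05 of the arrays' lowest value (2.16 on 24 arrays and 2.17 in wild type) on all 30 arrays, 36 were never above 3, 7 peaked between 3 and 4 and 4 were above 4 on 1 or 2 arrays. The last 4 were Adamts12, Adamts16, Mmp12 and Timp1, and the 7 were Adam19 (highest value 3.99), Mmp24 (3.95), Adamts15 (3.83), Adam8 (3.32), Mmp11 (3.28), Adam6b (3.23) and Adamts20 (3.08). The 36 were the other 15 testis and epididymis ADAMs (Adam1a, Adam1b, Adam2, Adam3, Adam4, Adam5, Adam6a, Adam7, Adam18, Adam21, Adam24, Adam25, Adam26a, Adam32 and Adam34), Adam12, Adam23, Adam28, Adam33, Adamts3, Adamts6, Adamts7, Adamts18, Adamts19, Mmp1a, Mmp1b, Mmp3, Mmp7, Mmp8, Mmp9, Mmp10, Mmp13, Mmp16, Mmp19, Mmp20 and Mmp23. Just inside the limit were Adam22, above 4 on 11 arrays, and Mmp17, on 15; just outside were Adamts16 and Adamts12, each on 2. Being above 4 is not the same as being well detected. A value identical within 0.0005 recurred on many of the 24 ret and R26P arrays for 5 measured genes: Adam11 at 4.17 on 10 arrays, Adam22 at 3.87 on 12, Adamts4 at 4.23 on 16, Adamts8 at 5.89 on 8 and Adamts5 at 3.54 on 5. Arrays at such a value carry no difference between them, and little can be read from Adam11, Adam22, Adamts4 and Adamts8.

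In ret mutants against ret controls, 3 of the 18 measured members were lower and 0 higher (limma, Benjamini-Hochberg adjusted p under 0.05), which is 16.7% of them, against 16.6% of all 11243 genes tested (8% higher, 8.63% lower). The members were thus called about as often as genes in general. The 3 were Adamts10, Adam9 and Timp4. The median member change was −0.27 (log2), against 0.01 over all genes, and 5 of 18 members had groups that did not overlap, against 23.5% of all genes.

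Adamts10, a secreted protease that binds the fibrillin microfibrils of the matrix, had signals of 9.79, 10.06, 9.81 and 9.79 in ret mutants, against 10.39, 10.50, 10.52 and 10.74 in ret controls. Every mutant array lay below every control. It fell by 0.67 ± 0.10 on the log2 scale (SE; 95% interval −0.91 to −0.44, limma adjusted p = 0.00476). In R26P mutants its means were 9.60 ± 0.21 in cerebrum and 9.69 ± 0.16 in cerebellum, against 9.63 ± 0.29 and 9.58 ± 0.14 in the R26P controls of those regions (SD, n = 4 each), and neither difference passed the test (limma adjusted p = 0.907 and 0.517). The difference between the effect in ret and that in R26P cerebrum was −0.64 ± 0.20, with a limma adjusted p of 0.0905, and so did not pass. The call in ret was kept when any 1 array was left out (8 of 8, adjusted p up to 0.0169). It was lost with the pituitary level as a covariate (−0.69, limma adjusted p = 0.0556) and with the leukocyte level (−0.14, adjusted p = 0.956). Without ret mutants 1, 2 and 4, which carried Gh, the 1 mutant left differed from the 4 controls by −0.72; its spread cannot be measured and was taken to be that of the controls (limma adjusted p = 0.0731).

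Adam9, a membrane protease that sheds growth factor precursors and receptors, was lower in all 3 mutant comparisons. Its signals were 10.65, 10.57, 10.65 and 10.74 in ret mutants, against 10.99, 11.06, 10.88 and 10.90 in ret controls, and the groups did not overlap (−0.30 ± 0.07, limma adjusted p = 0.0236). In cerebrum they were 10.86, 10.70, 10.52 and 10.64 in R26P mutants, against 10.95, 11.02, 10.97 and 10.99 in R26P controls (−0.30 ± 0.09, limma adjusted p = 0.0464). In cerebellum they were 11.004, 10.91, 10.60 and 10.78 in R26P mutants, against 11.43, 11.47, 11.14 and 11.27 in R26P controls (−0.50 ± 0.12, limma adjusted p = 0.025). Again every mutant array lay below every control of its region. These falls are small, and the cerebrum call is near the limit: its adjusted p ranged from 0.0245 to 0.412 over 18 other settings, of which 3 kept the call. Without any 1 of R26P control cerebrum 1, 2, 3 or 4 or R26P mutant cerebrum 2, 3 or 4, the limma adjusted p lay above 0.05 and reached 0.0999. The ret and cerebellum calls held in 10 of 18 and 11 of 17 other settings, and were lost, at adjusted p up to 0.0673 and 0.0663, without any 1 of ret controls 1 or 2 or ret mutants 2 or 3, and without any 1 of R26P control cerebellum 1 or 2 or R26P mutant cerebellum 3 or 4. The ret call was also lost with the replicate block (limma adjusted p = 0.109), though the replicate number does not pair ret mutants with ret controls. It was lost too with the pituitary or leukocyte level as a covariate (limma adjusted p = 0.145 and 0.693). Without the arrays with Gh only 1 ret mutant is left, whose spread cannot be measured. The cerebellum call was lost with no filter on dim genes and without arrays with Gh above 8 (limma adjusted p = 0.0553 and 0.0574).

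**Figure D1:**
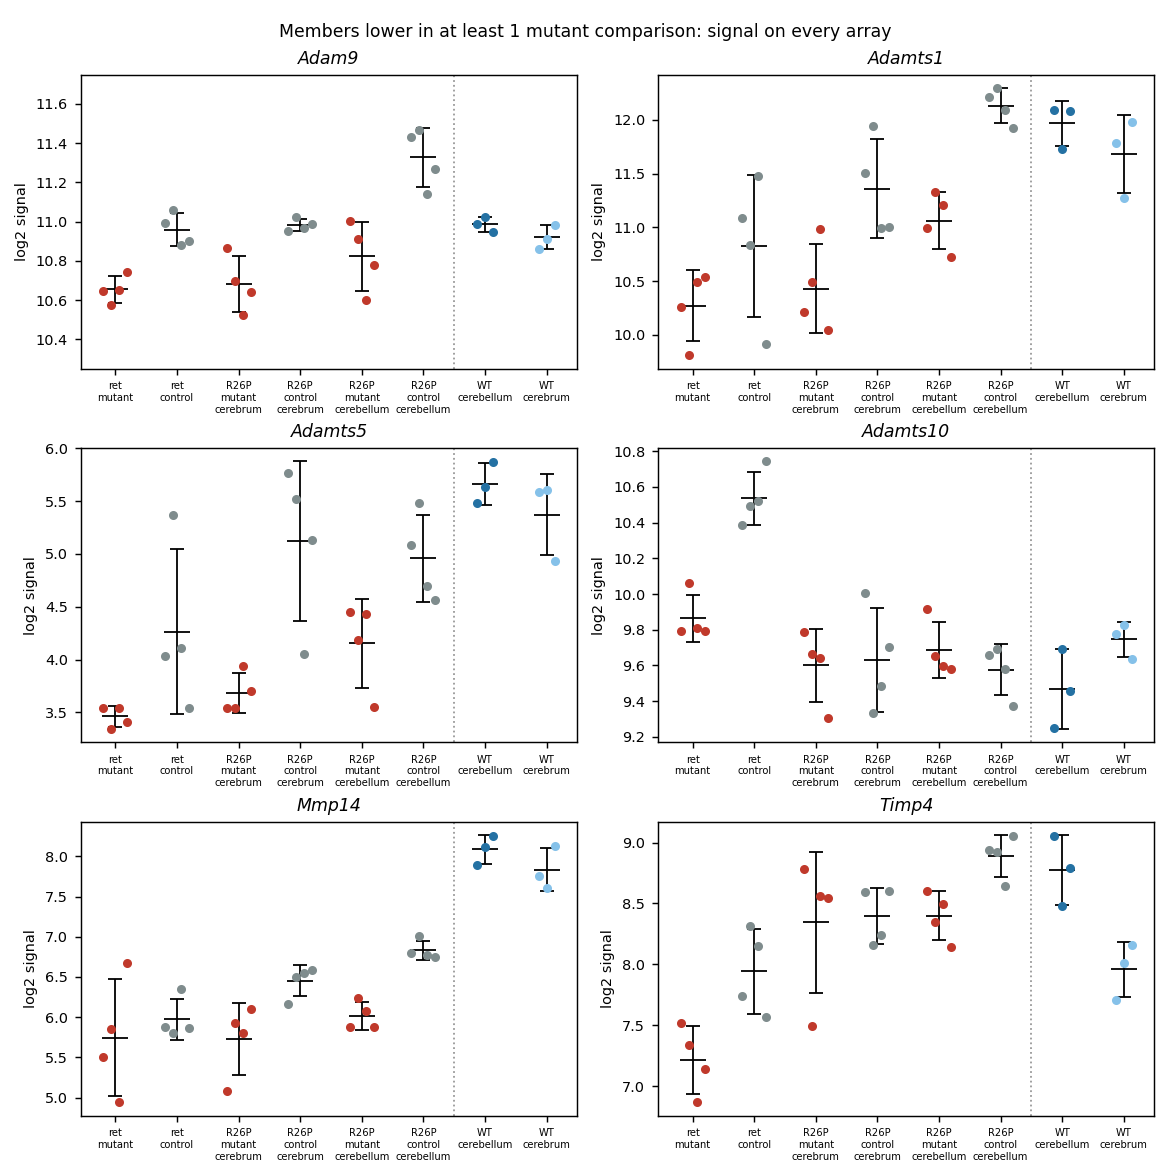
Log2 signal (y axis) of the 6 members that were lower in at least 1 mutant comparison, 1 point per array, in the 8 groups (x axis); horizontal bars are group means and error bars are SD (n = 4, or 3 in WT), and the y axes do not start at 0. Adam9 is lower in mutants (red) than in controls (grey) in each pair, Adamts10 only in the ret pair by the test; WT arrays, right of the dotted line, were normalized separately and their levels are not comparable with the rest.

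In R26P mutant cerebrum against control cerebrum, 2 of the 18 measured members were lower and 0 higher, or 11.1%, against 18.7% of all genes tested (8.35% higher, 10.3% lower). Adam9 was one and Adamts5 the other. The median member change was −0.06, against 0.01 over all genes, and 6 of 18 members had groups that did not overlap, against 25.9% of all genes.

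Adamts5, which in mouse is the main enzyme that degrades the proteoglycan aggrecan in cartilage, had signals of 3.54, 3.54, 3.94 and 3.70 in R26P mutant cerebrum, against 5.77, 5.52, 4.06 and 5.13 in R26P control cerebrum. All mutant arrays were below all controls, and control 3 was the closest to them. It fell by 1.44 ± 0.34 (95% interval −2.23 to −0.64, limma adjusted p = 0.0253). Since mutants 1 and 2 sit at the recurring value of 3.54, the size of the fall is uncertain. A second probe set for the gene fell by 1.75 ± 0.36 there (limma adjusted p = 0.0171 in a fit that kept probe sets apart). Its signals in cerebellum were 4.45, 4.19, 4.43 and 3.55 in R26P mutants, against 5.08, 5.48, 4.70 and 4.57 in R26P controls (−0.80 ± 0.26, limma adjusted p = 0.0795), and in the ret model 3.54, 3.35, 3.54 and 3.41 in mutants, against 4.03, 5.37, 4.11 and 3.54 in controls (−0.80 ± 0.35, limma adjusted p = 0.159). The groups did not overlap in cerebellum and met at 3.54 in ret. Over 17 other settings the cerebrum call held in 7; leaving out any 1 of R26P control cerebrum 1, 2 or 4 or R26P mutant cerebrum 1, 2 or 4 gave an adjusted p above 0.05 and up to 0.0687.

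In R26P mutant cerebellum against control cerebellum, 4 of the 18 measured members were lower and 0 higher, or 22.2%, against 15.6% of all genes tested (6.94% higher, 8.7% lower). They were Mmp14, Adamts1, Adam9 and Timp4. The median member change was −0.10, against 0.00 over all genes, and 7 of 18 members had groups that did not overlap, against 22.8% of all genes. The 4 of 18 is near the background.

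Adamts1, a secreted protease that cleaves versican and aggrecan and is known to restrain vessel growth, had signals of 10.99, 11.33, 11.21 and 10.72 in R26P mutant cerebellum, against 12.21, 12.30, 12.10 and 11.93 in R26P control cerebellum. The highest mutant array was below the lowest control. It fell by 1.07 ± 0.15 (95% interval −1.41 to −0.73, limma adjusted p = 0.00313), and the call held in 17 of 17 other settings, with changes of −1.16 to −0.96 (−1.12 without mutant cerebellum 3, which carried Gh). In cerebrum its signals were 10.21, 10.49, 10.98 and 10.04 in R26P mutants, against 11.51, 11.94, 10.99 and 11.003 in R26P controls. The groups there nearly met, at mutant 3 and controls 3 and 4, and the difference of −0.93 ± 0.27 had a limma adjusted p of 0.0512. In the ret model the signals were 10.26, 9.81, 10.49 and 10.54 in mutants, against 11.08, 10.83, 11.48 and 9.91 in controls (−0.55 ± 0.33, limma adjusted p = 0.289). Control 4 was below 3 of the 4 mutants, and without it the limma adjusted p was 0.0499. That was the only 1 of 18 other settings with a call. Leaving out a different single array gave a limma adjusted p of up to 0.522.

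Mmp14, the membrane-type MMP that activates pro-MMP2 at the cell surface, had signals of 5.88, 6.23, 6.07 and 5.88 in R26P mutant cerebellum, against 6.80, 7.00, 6.77 and 6.75 in R26P control cerebellum. The groups lay well apart. Mutants 1 and 4 had the same value, 5.876, as did ret control 1, so the spread among the mutants may be understated. Mmp14 fell by 0.82 ± 0.11 (95% interval −1.06 to −0.57, limma adjusted p = 0.00256), a call that held in 17 of 17 other settings. Averaging the gene's 3 probe sets took the change to −0.39, and without mutant cerebellum 3 the change was −0.84. In cerebrum its signals were 5.08, 5.93, 5.81 and 6.10 in R26P mutants, against 6.17, 6.50, 6.55 and 6.59 in R26P controls (−0.72 ± 0.22, limma adjusted p = 0.0568), again without overlap. In the ret model they were 5.51, 5.86, 4.94 and 6.68 in mutants, against 5.88, 5.80, 6.35 and 5.87 in controls (−0.23 ± 0.34, limma adjusted p = 0.691), where mutant 4 was the highest of all 8 arrays and mutant 3 the lowest.

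The test of the R26P effect in cerebellum minus that in cerebrum called 0 of the 18 measured members and 0.116% of all genes, and 0 members had an unadjusted p under 0.05. The differences were −0.14 (95% interval −0.84 to 0.56) for Adamts1, −0.10 (−0.64 to 0.45) for Mmp14, −0.20 (−0.51 to 0.10) for Adam9, 0.64 (−0.34 to 1.61) for Adamts5 and −0.44 (−1.12 to 0.25) for Timp4. The intervals are wide, and calls made in 1 region and missed in the other are not shown to differ. These intervals do not use the pairing of the regions by replicate number. With the replicate block the limma adjusted p was 0.84 for Adamts1, 0.906 for Mmp14, 0.527 for Adam9, 0.579 for Adamts5 and 0.616 for Timp4. The test of the ret effect minus the R26P cerebrum effect also called 0 of 18, against 3.35% of all genes, with 2 members at an unadjusted p under 0.05 (Adamts10, given above, and Adam15, −0.38 ± 0.14, limma adjusted p = 0.125).

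**Figure D2:**
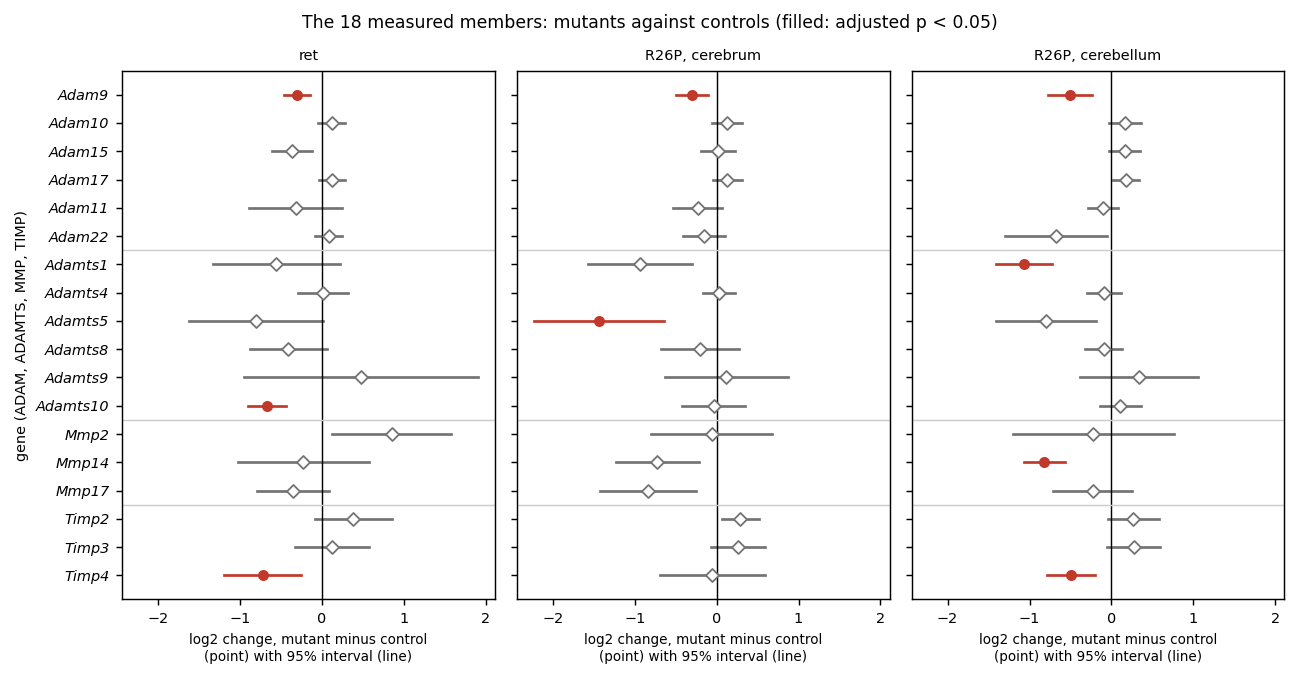
Log2 change (x axis, mutant minus control) of the 18 measured members (y axis) with 95% intervals, in ret, R26P cerebrum and R26P cerebellum; filled red circles passed the limma test (adjusted p under 0.05) and open diamonds did not. All 9 calls lie left of 0, and Adamts1 at −1.07 and Mmp14 at −0.82 in R26P cerebellum have the narrowest intervals for their size. For Mmp14, R26P mutant cerebellum 1 and 4 share the value 5.876, which can narrow its interval.

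Adam10 and Adam17 passed in no mutant comparison. Adam10, the sheddase of Notch receptors and N-cadherin, averaged 13.00 ± 0.08 in ret mutants and 12.88 ± 0.07 in ret controls, with a difference of 0.12 (95% interval −0.04 to 0.28). It differed by 0.12 (−0.06 to 0.30) in R26P cerebrum and by 0.16 (−0.03 to 0.36) in R26P cerebellum. Adam17, which releases TNF and ligands of the EGF receptor, differed by 0.12 (−0.04 to 0.28), 0.13 (−0.04 to 0.30) and 0.18 (0.02 to 0.34) in ret, R26P cerebrum and R26P cerebellum; in the last the groups did not overlap (limma adjusted p = 0.119). For the probe sets used, changes as large as those of Adamts1 or Mmp14 in R26P cerebellum lie outside these intervals for both genes. Other probe sets can differ. In ret minus R26P cerebrum the next brightest gave 0.87 ± 0.36 for Adam10 and −0.34 ± 0.33 for Adam17 (limma adjusted p = 0.195 and 0.578). The probe sets used gave −0.004 and −0.007 there.

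Adam15, a membrane protease found in endothelium and smooth muscle, had signals of 11.87, 12.01, 11.71 and 11.60 in ret mutants, against 12.13, 12.04, 12.24 and 12.25 in ret controls. The groups did not overlap, and the difference of −0.37 ± 0.10 had a limma adjusted p of 0.0504. Its other 2 measured probe sets lay lower in ret mutants too, with changes of −0.73 and −0.53 (limma adjusted p = 0.0575 and 0.186). In R26P mutants it differed by 0.02 (95% interval −0.18 to 0.22) in cerebrum and by 0.16 (−0.02 to 0.35) in cerebellum.

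Mmp2, the gelatinase that Mmp14 activates, was the one measured member whose ret mutants all lay above the controls. Its signals were 7.83, 7.74, 7.74 and 8.94 in ret mutants, against 7.37, 7.65, 6.79 and 7.03 in ret controls, a difference of 0.85 ± 0.31 that did not pass (limma adjusted p = 0.103). Mutant 4 was far above the other 3. Its second probe set differed by 1.21 in the same direction (limma adjusted p = 0.0988). In R26P mutants the differences were −0.06 (95% interval −0.80 to 0.68) in cerebrum and −0.22 (−1.20 to 0.76) in cerebellum, so neither direction can be read. Mmp2 levels went with the replicate number in both regions: R26P control 3 had 6.63 in cerebellum and 6.76 in cerebrum, against 7.96 to 8.67 and 7.97 to 8.01 in the other 3, and among wild-type mice number 2 was highest and number 3 lowest in both regions.

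Mmp17, a membrane-type MMP held by a lipid anchor, had signals of 3.83, 3.62, 3.66 and 3.66 in R26P mutant cerebrum, against 5.30, 4.06, 4.18 and 4.59 in R26P control cerebrum. No mutant reached 4 and every control did, and the difference of −0.84 ± 0.25 had a limma adjusted p of 0.0555. Since being above 4 is what makes a gene measured, the crossing of 4 is not separate support. Mmp17 differed by −0.23 ± 0.21 in R26P cerebellum and by −0.36 ± 0.19 in ret (limma adjusted p = 0.484 and 0.234). The groups overlapped in both, and no ret array of either group reached 4. Adamts9, which cleaves versican, had the largest SD within a group of all measured members, 1.30 in ret controls (7.26 to 10.39), and differed by 0.48 (95% interval −0.95 to 1.91) in ret, 0.12 (−0.63 to 0.87) in R26P cerebrum and 0.34 (−0.38 to 1.06) in R26P cerebellum. Ret control 4, the lowest array for Adamts9, was also the lowest control for Adamts1.

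Of the TIMP inhibitors, Timp4 was lower in 2 comparisons, and Timp2 and Timp3 passed the test in neither direction in any. Timp4, which inhibits several MMPs, had signals of 7.52, 7.34, 6.87 and 7.15 in ret mutants, against 7.74, 8.32, 8.15 and 7.57 in ret controls (−0.73 ± 0.20, limma adjusted p = 0.0492). In cerebellum it had 8.60, 8.35, 8.50 and 8.14 in R26P mutants, against 8.94, 8.93, 8.64 and 9.05 in R26P controls (−0.49 ± 0.13, limma adjusted p = 0.0391). In cerebrum it had 8.78, 7.49, 8.56 and 8.54 in R26P mutants, against 8.59, 8.16, 8.24 and 8.60 in R26P controls (−0.05 ± 0.28, limma adjusted p = 0.908). The first 2 pairs of groups did not overlap, by narrow gaps, while in cerebrum mutant 1 was the highest of the 8 and mutant 2 the lowest. Both calls are weak: the ret call held in 4 of 18 other settings and the cerebellum call in 6 of 17. In ret, leaving out any 1 of controls 1, 2 or 3 or mutants 2, 3 or 4 gave an adjusted p above 0.05 and up to 0.117, and in cerebellum any 1 of controls 1, 2 or 4 or mutants 2, 3 or 4 gave up to 0.0929. The gene's other probe set, which averaged 3.86, differed by 0.29 and 0.02 in those comparisons (limma adjusted p = 0.281 and 0.922).

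Timp2, which together with Mmp14 brings pro-MMP2 to the cell surface, had signals of 12.14, 12.41, 12.10 and 12.61 in ret mutants, against 11.73, 12.28, 12.21 and 11.51 in ret controls (difference 0.38, 95% interval −0.09 to 0.85). In cerebrum it had 12.87, 12.78, 12.75 and 12.85 in R26P mutants, against 12.43, 12.36, 12.56 and 12.75 in R26P controls (0.29, 0.06 to 0.52, limma adjusted p = 0.0751). In cerebellum it had 13.04, 13.06, 12.73 and 12.85 in R26P mutants, against 12.76, 12.75, 12.31 and 12.78 in R26P controls (0.27, −0.04 to 0.58). The R26P cerebrum groups just failed to overlap, and the other groups overlapped.

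Timp3, the inhibitor that stays bound to the matrix, had signals of 13.30, 13.68, 12.99 and 13.62 in ret mutants, against 13.08, 13.57, 13.45 and 12.99 in ret controls (difference 0.13, 95% interval −0.33 to 0.58). In cerebrum it had 13.51, 12.94, 13.31 and 13.56 in R26P mutants, against 13.04, 13.19, 12.93 and 13.11 in R26P controls (0.26, −0.07 to 0.60). In cerebellum it had 13.76, 13.31, 13.44 and 13.89 in R26P mutants, against 13.29, 13.49, 13.30 and 13.22 in R26P controls (0.27, −0.05 to 0.60). All 3 pairs of groups overlapped, and in ret another probe set of the gene differed by −0.61 (limma adjusted p = 0.132), opposite in sign to the one used.

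Timp1, which in other tissues is induced by injury and inflammation, was not measured. It had 3.40 on all 4 ret mutants, against 3.41, 3.40, 3.61 and 3.37 in ret controls. In cerebrum it had 3.60, 3.64, 3.40 and 4.71 in R26P mutants, against 3.40 on all 4 R26P controls. In cerebellum it had 3.41, 3.40, 3.40 and 3.40 in R26P mutants, against 3.28, 2.87, 3.40 and 3.37 in R26P controls. A value of 3.40 recurred on 14 of the 24 arrays, so only R26P mutant cerebrum 4 stood clearly above the rest. In wild type Timp1 had 2.18, 2.18 and 2.96 in cerebellum and 2.37, 2.18 and 3.85 in cerebrum.

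**Figure D3:**
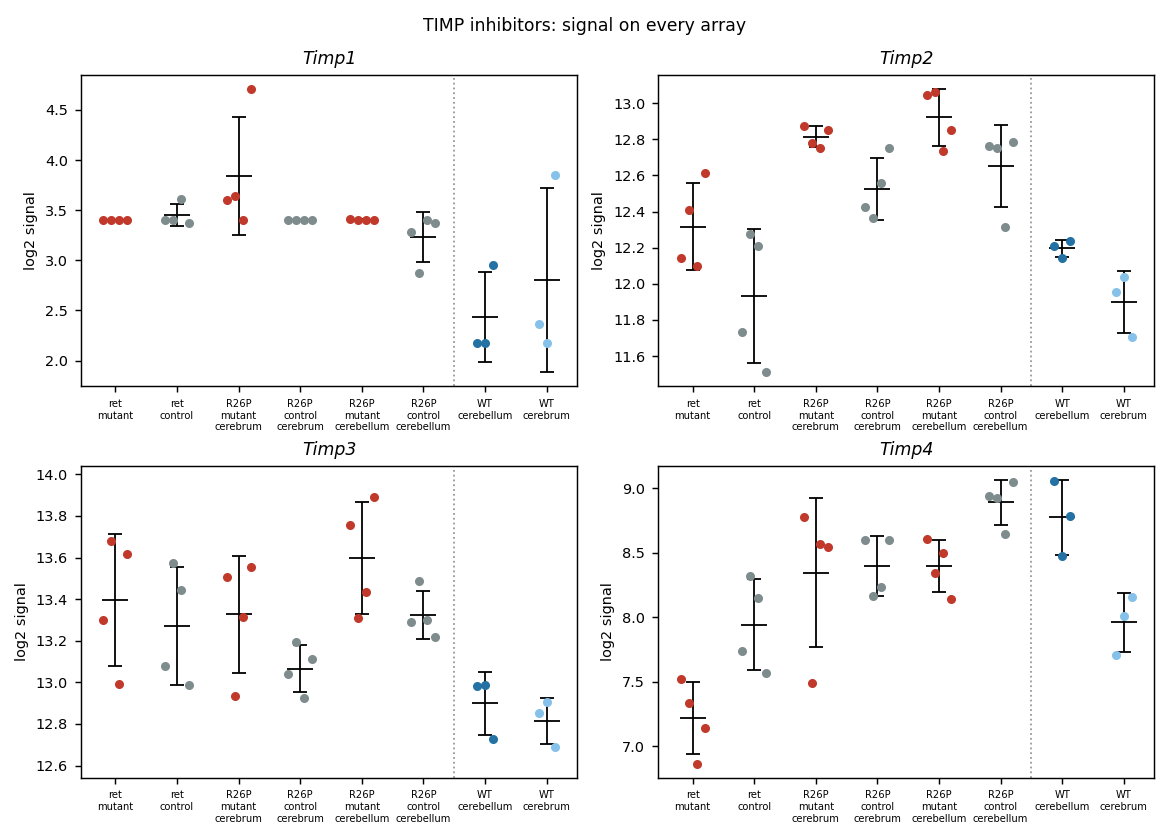
Log2 signal (y axis) of the 4 TIMP genes, 1 point per array, in the 8 groups (x axis), with group means and SD (n = 4, or 3 in WT); y axes differ and do not start at 0, and WT arrays (right of the dotted line) were normalized separately. Timp4 is lower in ret mutants and in R26P mutant cerebellum, and Timp1 has a single high array, R26P mutant cerebrum 4 at 4.71.

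Between regions, 0 of the 18 measured members passed in wild type (limma), against 2.12% of all genes, and 4 had an unadjusted p under 0.05. Timp4 had signals of 9.05, 8.48 and 8.79 in wild-type cerebellum, against 7.71, 8.01 and 8.16 in wild-type cerebrum, without overlap (0.81 ± 0.18, limma adjusted p = 0.108). Adam22, a catalytically inactive ADAM that serves in neurons as a receptor for LGI1, had 5.31, 5.84 and 5.45 in wild-type cerebellum, against 4.55, 4.66 and 4.86 in wild-type cerebrum (0.84 ± 0.16, limma adjusted p = 0.0738). Timp2 differed by 0.30 and Adam15 by −0.39, also without overlap, and 4 of 18 members in all did not overlap, against 21.7% of all genes.

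In R26P controls, 0 of 18 passed, against 1.17% of all genes, and 5 had an unadjusted p under 0.05. Cell markers differed between these regions too. Of 9 measured pericyte markers, 7 were higher and 0 lower in control cerebellum by limma (median 0.71), and 4 and 0 in wild-type cerebellum (0.60). Perivascular fibroblast and choroid plexus markers had medians of 0.55 and 1.44 in R26P controls, with 0 called. Of 9 astrocyte markers there, 2 were higher and 3 lower. The part of these markers in the members' differences was not tested. Arrays with the same replicate number deviated together in cerebellum and cerebrum, and with the number as a block Adamts1 was called, at 0.77 higher in cerebellum (limma adjusted p = 0.0467), with 4.22% of all genes. Its signals were 12.21, 12.30, 12.10 and 11.93 in control cerebellum, against 11.51, 11.94, 10.99 and 11.003 in control cerebrum, higher in cerebellum in each of the 4 pairs though the groups touch at 11.93 and 11.94. By limma, Timp4 (0.49 ± 0.14, adjusted p = 0.168), Mmp14 (0.38 ± 0.11, adjusted p = 0.191), Adam9 (0.35 ± 0.09, adjusted p = 0.132) and Timp3 (0.26 ± 0.09, adjusted p = 0.249) had groups that did not overlap, higher in cerebellum and not called; 4 of 18 compare with 8.12% of all genes.

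In R26P mutants, 0 of 18 members passed between regions, with and without the block, and 0% of all genes did; 1 member, Adamts1, had an unadjusted p under 0.05 (0.63, 95% interval 0.11 to 1.16, limma adjusted p = 0.752). No member's groups were apart, against 2.77% of all genes. Timp4 differed by 0.05 (−0.59 to 0.70) and Mmp14 by 0.29 (−0.23 to 0.80). Without pair 3, whose region labels are not settled, 0 members passed as well.

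**Figure D4:**
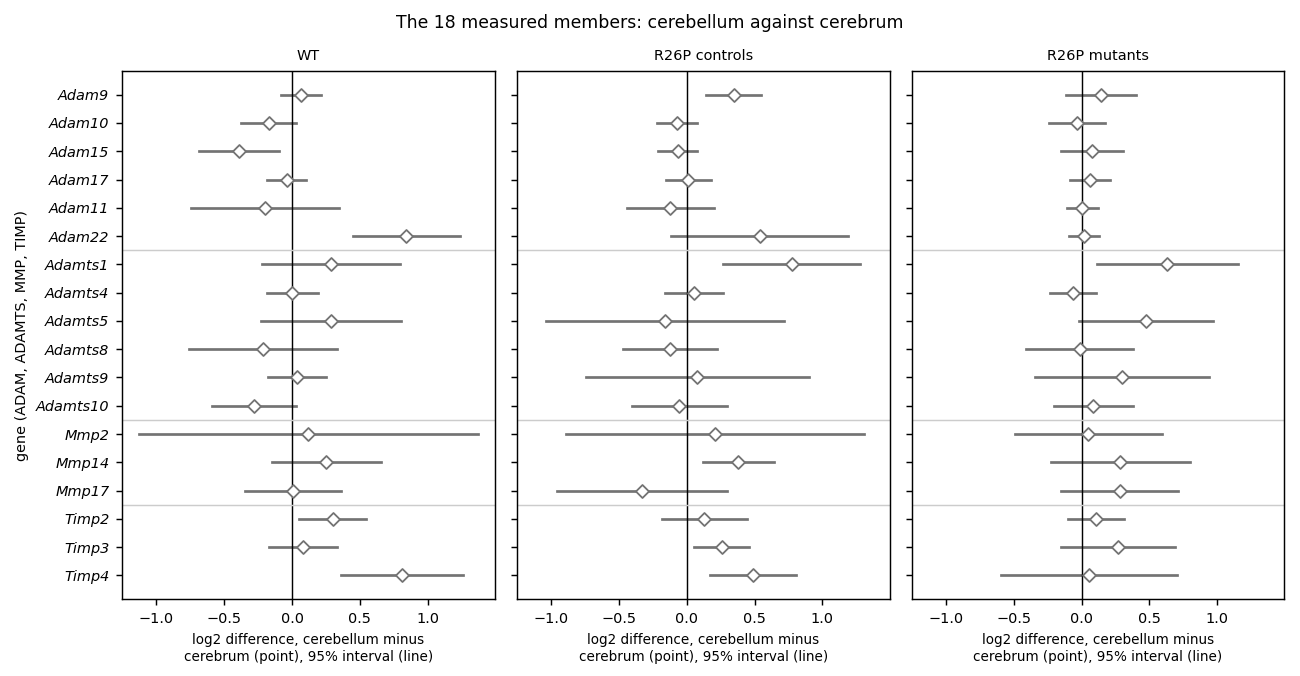
Log2 difference (x axis, cerebellum minus cerebrum) of the 18 measured members (y axis) with 95% intervals, in WT, R26P controls and R26P mutants, without the replicate block; open diamonds did not pass the limma test, and none passed. Timp4 lies at 0.81 in WT, 0.49 in R26P controls and 0.05 in R26P mutants.

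Related genes outside the families were read from lists, and markers of other cells moved with the same comparisons. The pericyte markers were lower as a whole: 9 of 9 measured markers fell in each comparison (limma), and their mean level was 7.04 to 8.17 in ret mutants against 10.70 to 11.20 in ret controls, 7.57 to 8.93 in R26P mutant cerebrum against 11.66 to 11.87 in control cerebrum, and 8.51 to 9.89 in R26P mutant cerebellum against 12.43 to 12.55 in control cerebellum; the marker Anpep was never above 4. Smooth muscle markers fell in 1, 9 and 4 of 10, perivascular fibroblast markers in 2, 6 and 4 of 9 and astrocyte markers in 7, 8 and 7 of 9, with Gfap never above 4, in ret, R26P cerebrum and R26P cerebellum. Blood leukocyte markers (4 of 13 measured, with Cd3g, Cd3e, Cd2 and Camp never above 4) rose in 3, 1 and 0 of 4 in those comparisons. Their mean levels were 7.31 to 8.15 in ret mutants, against 5.29 to 5.81 in ret controls. In cerebrum they were 7.31 to 9.70 in R26P mutants, against 5.78 to 7.12 in R26P controls. In cerebellum they were 6.52 to 9.25 in R26P mutants, against 6.65 to 8.57 in R26P controls, and overlapped. Fewer cells of a type and less RNA per cell cannot be told apart in these samples, and the part of these markers in the members' falls was not tested beyond the fits in which the leukocyte level was held as a covariate: with it, 3 of the 9 calls were kept, those of Adamts1, Mmp14 and Adam9 in R26P cerebellum (−0.99, −0.78 and −0.48, limma adjusted p = 0.00101, 0.00365 and 0.0399). The other 6 were lost. In ret these were Adam9 (−0.62, limma adjusted p = 0.693), Adamts10 (−0.14, 0.956) and Timp4, which took the opposite sign (0.31, 0.949); the level separates ret mutants from ret controls completely. In R26P they were Adam9 and Adamts5 in cerebrum (−0.26 and −1.14, limma adjusted p = 0.204 and 0.163) and Timp4 in cerebellum (−0.48, 0.0622).

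Proteases and inhibitors of the plasminogen system, which activates several MMPs, were called in 4 of 4 measured genes in ret and in R26P cerebrum and in 2 of 4 in R26P cerebellum, where 16.6%, 18.7% and 15.6% of all genes were called. Plaur, the receptor that holds urokinase at the cell surface, fell by 1.51, 0.98 and 1.10 in ret, R26P cerebrum and R26P cerebellum (limma adjusted p = 0.00483, 0.0278 and 0.00439). Serpini1, the neuronal inhibitor of tissue plasminogen activator, fell by 1.57, 2.07 and 2.29. Plat, which is tissue plasminogen activator, fell by 0.84 in ret and 0.94 in R26P cerebrum. Tfpi2, an inhibitor of plasmin and other serine proteases, rose by 2.49 in ret (limma adjusted p = 0.000311) and by 1.07 in R26P cerebrum (adjusted p = 0.0322).

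Of 10 measured regulators of metalloproteases, 1, 3 and 4 were called in ret, R26P cerebrum and R26P cerebellum, against 16.6%, 18.7% and 15.6% of all genes, so the share in ret was below that of all genes. Rhbdf2 (iRhom2), needed for the maturation of ADAM17, fell by 1.49, 1.35 and 1.11 (limma adjusted p = 0.0314, 0.011 and 0.0163), while its relative Rhbdf1 (iRhom1) rose by 0.57 and 0.38 in the R26P regions. Spock2, a testican proteoglycan, fell by 1.33 and 1.00 there. Thbs2, a matricellular protein that binds MMP2, fell by 0.90 in R26P cerebellum (adjusted p = 0.00425 by limma). Of 9 measured membrane and astacin-type metalloproteases and their cofactors, 3, 6 and 4 were called, against the same shares of all genes. Enpep, an aminopeptidase of pericytes, fell by 3.15, 3.64 and 3.30, and Ece2 rose by 0.61, 0.85 and 0.66 (limma adjusted p = 0.0273, 0.0152 and 0.00634). The procollagen cofactors Pcolce and Pcolce2 fell by 1.61 and 2.27 in R26P cerebrum and by 1.34 and 1.73 in R26P cerebellum. Of the 4 measured ADAMTS-like proteins, which resemble ADAMTS proteins without a protease domain, 0, 2 and 2 were called, against those shares: Adamtsl1 fell by 2.01 and 1.45 in R26P cerebrum and cerebellum, Adamtsl2 rose by 1.07 in cerebrum and Adamtsl5 fell by 0.74 in cerebellum.

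Of 9 measured proteoglycan and glycoprotein substrates, 2, 4 and 5 were called, against 16.6%, 18.7% and 15.6% of all genes in ret, R26P cerebrum and R26P cerebellum. Brevican (Bcan), a brain proteoglycan cut by ADAMTS4 and ADAMTS5, fell by 1.28, 2.10 and 1.68 in ret, R26P cerebrum and R26P cerebellum (limma adjusted p = 0.0126, 0.00074 and 0.0029), and biglycan (Bgn) rose by 2.04, 1.40 and 1.08 (0.00183, 0.00236 and 0.00318). Nidogen 1 (Nid1), a basement membrane linker, fell by 0.84 and 1.11 in the R26P regions. Neurocan (Ncan), another brain proteoglycan, fell by 1.13 in R26P cerebrum. Of 16 measured substrates that ADAMs shed, 5, 5 and 6 were called, against the same shares of all genes. Cx3cl1, a membrane-bound chemokine released by ADAM10 and ADAM17, rose by 1.59, 1.69 and 1.82 (limma adjusted p = 0.00366, 0.000188 and 0.000121). Notch3, the Notch receptor of pericytes and smooth muscle and a member of the pericyte list too, fell by 3.27, 2.41 and 2.13 in ret, R26P cerebrum and R26P cerebellum. Jam3, a junctional adhesion molecule, fell by 1.74 and 1.75 in R26P cerebrum and cerebellum, and Cxcl16, a second membrane-bound chemokine, rose by 2.76 in ret. No list was tested as a whole.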

How the data were processed

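Total RNA of brain microvascular fragments, amplified by a small-sample protocol per the labels' protocols, was hybridised to 30 Affymetrix arrays. The authors deposited log2 signals per probe set, made with GCRMA 2.6.0 under R 2.4.1 per the submitters' processing notes. The deposited log2 values share 1 lowest value, 2.16, on the 24 ret and R26P arrays and another, 2.17, on the 6 wild-type arrays, so wild type was compared only between its own regions; array number limits the precision.

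The platform annotation names a single gene for 34958 of the 45101 probe sets, 18194 genes in all; the 65 members had an entry in RefSeq. Genes above 4 on at least 3 arrays (11243) were tested with limma 3.58.1 (R 4.3.3; lmFit, eBayes) between groups, with Benjamini-Hochberg adjustment over all of them; effects of the mutation were compared by an interaction term. The fit was tested on simulated data. Members, gene lists and tests were chosen with earlier results of these data known. Values per array are given for members that passed in a mutant comparison and for the 4 TIMP genes, other members by values or ranges (arrays of Adam15, Mmp2, Mmp17 and Adam22 were added after their values were seen), and up to 4 called genes per list by adjusted p. Replicates are separate samples per the labels, and p-values measure their spread. Deviations of arrays with the same number correlated at 0.34 to 0.84 between regions, which pairs them, and at −0.20 to 0.34 between mutants and controls, which does not. Alternatives were the filter, the probe set rule, 2 further normalizations, eBayes with a trend and robust prior, the replicate block, pituitary and leukocyte marker levels as covariates, and leaving out arrays.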

Additional observations from a re-analysis of the deposited data

Results flagged for a closer look

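Within groups of 4, 19 of 108 combinations of a measured gene and a group held 1 array far from the other 3 by Dixon's test, where chance gives about 1 in 20. No cause was tested.

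Of these, 12 concern the 4 genes Adam11, Adam22, Adamts4 and Adamts8, whose values recur on many arrays. Adam11 was 4.17 on ret mutant 1, 5.203 on ret control 3 and 4.12 on R26P mutant cerebrum 3. Adam22 was 4.09 on ret mutant 4 and 3.815 on R26P mutant cerebrum 2. Adamts4 was 3.77 on ret mutant 2, 4.48 on R26P mutant cerebrum 3, 4.37 on R26P control cerebrum 1 and 4.55 on R26P control cerebellum 3. Adamts8 was 5.88 on R26P mutant cerebellum 4, 5.196 on ret control 4 and 6.25 on R26P control cerebellum 1.

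Among the other members, Mmp2 was high on ret mutant 4 (8.94) and on R26P mutant cerebellum 3 (8.20) and low on R26P control cerebrum 3 (6.76). Adamts10 was high on ret mutant 2 (10.06), still below every ret control. Mmp14 was high on ret control 3 (6.35), Adam15 on R26P mutant cerebrum 4 (12.53), and Timp2 was low on R26P control cerebellum 3 (12.31). R26P mutant arrays numbered 3 and ret mutants 2 and 4 are among the arrays that carried pituitary transcripts.

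Among the members too dim to test, Mmp12, the macrophage elastase, reached 4.39 on R26P mutant cerebellum 4, and Timp1 reached 4.71 on R26P mutant cerebrum 4, each above its level on all R26P control arrays.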

How the results depend on the processing

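The calls of Adamts1 and Mmp14 in R26P mutant cerebellum held under all 17 other settings each, and that of Adamts10 in ret mutants under 15 of 18. The number of members called moved more. In ret mutants against controls it was 3, and 0 with the pituitary level or the leukocyte level as a covariate and 0 without arrays with Gh above 8; leaving out 1 array gave 1 to 4. Without arrays with Gh only 1 ret mutant is left, whose spread was taken from the controls; the change of Adamts10 there was −0.72, against −0.67 with all arrays. The leukocyte level separates ret mutants from ret controls, and with it 1 gene of all was called. Timp4 in ret took the opposite sign there, at 0.31 (limma adjusted p = 0.949). In R26P cerebrum the count was 2, and 0 with no filter on dim genes and 1 with the leukocyte level. It was 0 without arrays with Gh above 8, a fit that held only arrays 1 and 4 of each cerebrum group. Leaving out 1 array gave 1 to 2. In R26P cerebellum it was 4, and 2 with no filter and 2 without arrays with Gh above 8; leaving out 1 array gave 2 to 4. With all arrays shifted to 1 median, 1 member, Adam22, was called between wild-type regions, against 0. In ret minus R26P cerebrum, leaving out 1 array gave 0 to 1, with the 1 coming without R26P control cerebrum 1 or R26P mutant cerebrum 4. The causes were not tested. Leaving out arrays with Gh, and in R26P the covariates, were chosen after seeing the data. Over all genes, without arrays with Gh the calls numbered 237 in R26P cerebrum and 1117 in R26P cerebellum, against 2097 and 1758 with all arrays. Those fits also held fewer arrays, and fewer arrays and less pituitary RNA cannot be told apart there.

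With the replicate number as a block, 1 member (Adamts10) was called in ret, 3 (Adam9, Adamts1 and Mmp14) in R26P cerebellum, 1 in R26P cerebrum, which was Mmp14 and neither of the 2 called without it, and 1, Adamts1, between R26P control regions; the number pairs arrays only between regions, where the block changed no other call. Signals near 4 limit Adamts5, Mmp17, Adam11, Adam22, Adamts4 and Timp1.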

Other observations

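Adamts16, a dim member, had 6.09, 5.89, 2.19 and 2.21 in R26P control cerebellum 1 to 4, 2.29, 3.39 and 3.30 in wild-type cerebellum, and at most 2.21 on each of the other arrays. Adamts12 had 4.38, 3.61 and 2.73 in wild-type cerebellum and 4.12, 3.46 and 2.87 in wild-type cerebrum.

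The R26P mutant numbered 4 held the highest value of 5 of the 47 dim members, Adam1b, Adam6b, Adam8, Mmp12 and Timp1. How many any 1 mouse would hold by chance was not worked out, and Adam1b stayed near its recurring value of 2.19. The same mutant had the highest mean level of the leukocyte markers, 9.25 in cerebellum and 9.70 in cerebrum. Mmp12 was 4.39 in its cerebellum and 3.84 in its cerebrum. Adam8, an ADAM of white blood cells, was 3.32 and 3.17 there, against 2.17 to 2.87 in cerebellum and 2.17 to 2.31 in cerebrum of the other 3 mutants. Adam6b was 3.23 in its cerebrum and Adam1b 2.34 in its cerebellum, and both are ADAMs of the testis or epididymis. The part of white blood cells in these values was not tested.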
